A study of Arabidopsis thaliana with 97 samples.

Results

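The 200 most abundant antisense transcripts of nuclear Arabidopsis thaliana loci were examined in leaf discs treated with flg22, the flagellin peptide that plants perceive through the receptor FLS2 and that sets off pattern-triggered immunity (PTI). The assay was EXPRSS Tag-seq, which reads short tags near the 3′ end of polyadenylated RNA with the strand kept, so that tags on the strand opposite to an annotated gene are counted apart as antisense. Of 24617 antisense loci, 24358 were nuclear, and 3484 of these were left out because their antisense tags outnumbered the sense tags of the same locus. The remaining 20874 were ordered by mean level over 96 libraries, and the first 200 were kept. The members were therefore chosen by measured level, and their levels and ranks are a description with no test. Since 84 of the 96 libraries came from flg22-treated discs and 12 from water, the choice favours antisense transcripts that are high under flg22, and counts of rises among the members are not independent of it.

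The discs came from plants 5 weeks old, grown in short days of 8 h of light. They were infiltrated with water, rested in water for about 20 h, and were then collected after 8 min of water or after 8, 15, 30, 45, 60, 120 or 180 min of 100 nM flg22. Each of the 32 groups had 3 replicates. The genotypes were the wild type Col-0 and 3 mutants with a defect in a hormone pathway, salicylic acid in npr1-1, jasmonate in jar1-1 and ethylene in ein2-5, all in the Columbia background. Water discs were collected at 8 min only, so the flg22 times of a genotype share the same 3 water libraries, and time and flg22 changed together. The authors call the replicates biological. The labels do not say whether replicates came from separate plants, so p-values measure the spread between these libraries.

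Antisense transcripts of plant genes can arise from a promoter on the other strand, from read-through of a convergent neighbour, or by copying of a sense RNA. Some are known to act on their sense partner, as at FLC, the flowering repressor, where antisense COOLAIR transcripts take part in silencing. In tag libraries, antisense tags can also be made from the sense RNA during cDNA synthesis. The authors hold that second-strand synthesis by reverse transcriptase does not affect EXPRSS, where the strand copied from mRNA is the sequencing template. Which of these sources gave the tags counted here was not tested.

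Libraries held 388690 to 2415400 tags (median 1376900). Nuclear antisense loci took 1.48% to 5.18% of the tags, and the 200 members took 0.336% to 1.37%, or 13.6% to 33.7% of the nuclear antisense tags. A member had 2076.5 to 29274 tags over all libraries (median 3535), and 124 members had a tag in every library. Mesophyll markers were present in every library, while the root markers were at 0 in 86 to 95 of the 96 libraries and the trichome marker GL1 in all 96. A second trichome marker, GL2, was at 0 in 7 libraries, with a median of 3.83 TPM. Fewer cells of a type and less RNA per cell cannot be told apart in such discs.

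Highest among the members was the antisense of RBCS1A, a small subunit of Rubisco, at a mean of 216 TPM, the unit here being tags per 1000000 tags of the library. It was followed by GSTF7 (201 TPM), a glutathione transferase, PAL1 (190 TPM), the entry enzyme of the phenylpropanoid pathway, and AT1G19020 (185 TPM), of unknown function. Next came GSTF6 (180 TPM), ERD15 (177 TPM), the protease inhibitor AT2G38870 (158 TPM), SAG20 (118 TPM), EARLI1 (114 TPM) and AT2G39518 (109 TPM). The limit of 200 fell in a flat part of the ranking. AT4G34180 (16.66 TPM) and AT1G42980 (16.63 TPM) were the last inside it, and TRX3 (16.60 TPM) and AT2G39400 (16.59 TPM) the first outside.

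**Figure D1:**
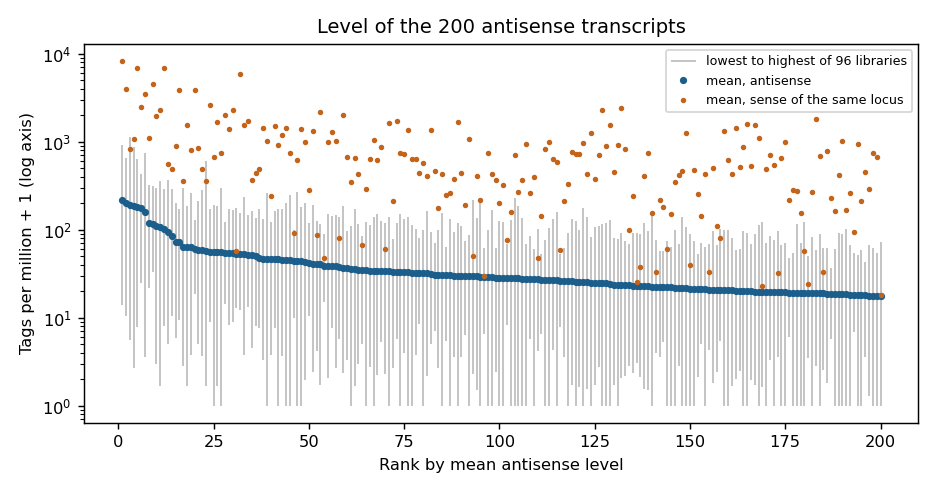
TPM plus 1 on a log axis for the 200 members, ordered by mean antisense level on the x axis. Blue points are means of the antisense over 96 libraries, grey lines run from the lowest to the highest library, and orange points are the mean sense level of the same locus. Antisense means run from 216 to 16.63 TPM, with sense means mostly far above them.

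Most members lay opposite to abundant sense transcripts. Ranked among all sense loci, 59 of the 200 sense partners were in the first 100, 97 in the first 200 and 168 in the first 1000. Antisense tags per 100 sense tags ran from 0.900 to 99.0 with a median of 5.63, and 139 members had fewer than 10. At 17 members the antisense reached 50 or more per 100 sense tags. One of them is AT1G42980 (99.0), whose convergent neighbour BZIP60, a transcription factor of the unfolded protein response and itself a member, had a mean sense level of 485 TPM against 16.9 TPM for AT1G42980. Across the 32 group means, antisense AT1G42980 had a Pearson r of 0.94 with its own sense and of 0.90 with BZIP60.

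By the position of genes on the other strand, 21 members (10.5%) overlapped a protein-coding gene, 58 (29%) had a convergent neighbour within 2000 bp and 116 (58%) had neither. Other antisense loci that passed the filter on low counts gave 12.4%, 24.7% and 59.4%, and all nuclear antisense loci 20.5%, 25.1% and 51.6%. The names and neighbours come from a TAIR10.1 annotation, whereas the files were made with TAIR10, so these shares are approximate.

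Not every antisense tag belongs to its locus alone. The authors split a tag that matched several loci in equal shares, and 39 members had values that were not whole in over 50% of the libraries that held their tags. These include close relatives such as GSTF7, EARLI1 and RBCS3B. RBCS1A (76.0% of its libraries) and AT3G55470 (75.8%) are also among the 39. The assignment of tags to all of these members is uncertain. Whole values in every library were found for 61 members. Nuclear ribosomal RNA (AT3G41768 and AT2G01010) and the transcribed pseudogenes AT1G79245 and AT2G07688 were also among the 200.

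The first question was which antisense transcripts flg22 changed in Col-0, and when. All 200 members passed the filter on low counts and were tested with edgeR's quasi-likelihood test among 16816 loci of both strands, with Benjamini-Hochberg adjusted p under 0.01 as the call. For the counts by time and by genotype in this fit, the share of all loci called is given beside them. At 8 min 6 members were higher and none was lower (1.31% of all loci higher and 0.0% lower). At 15 min 61 were higher and none lower (10.2% and 2.99%), at 30 min 78 higher and 1 lower (12.3% and 5.69%), and at 45 min 93 higher and 5 lower (16.9% and 11.4%). At 60 min 104 were higher and 14 lower, against 19.3% and 16.6% of all loci and 22.3% and 5.34% of the 2247 antisense loci tested. At 120 min 104 were higher and 14 lower (18.7% and 16.8%), and at 180 min 79 were higher and 14 lower (17.9% and 15.2%). Of the antisense loci, 0.801%, 10.2%, 18.7% and 21.0% were higher at 8, 15, 30 and 45 min. The shares lower at these times were 0.0%, 0.668%, 1.74% and 3.38%. At 120 and 180 min, 17.8% and 13.8% of antisense loci were higher and 4.72% and 5.03% lower. The median log2 change of the members was 0.31 at 8 min, 1.94 at 60 min and 1.99 at 120 min, against -0.04 at 60 min over all loci and 0.70 over antisense loci.

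Over the course, 127 members were called higher at some time and 18 lower, against 29.4% and 27.0% of all loci and 34.0% and 9.08% of the antisense loci. None was called in both directions (0.904% of all loci), and 55 were called at no time (44.5%). The first call of a rise came at 8 min for 6 members (1.31% of all loci), at 15 min for 55 (8.87%), at 30 min for 22 (5.11%), at 45 min for 11 (4.35%), at 60 min for 15 (3.82%), at 120 min for 16 (4.08%) and at 180 min for 2 (1.88%). A rise was called at every time from 15 to 180 min for 30 members (4.2% of all loci). With the lane as a block, 19 members were called at 8 min (18 higher and 1 lower, edgeR), where 1.84% of all loci were. Without replicate 2, 2 were called at 8 min, with 103 of 17002 loci called, against 220 of 16816 in the main fit. Without replicate 3, the count at 15 min fell to 34, with 1362 of 16660 loci called, against 2212 of 16816. At 180 min 58 were called without replicate 2 (3620 of 17002 loci) and 55 without replicate 3 (4021 of 16660). The main fit called 5560 of 16816 loci there.

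**Figure D2:**
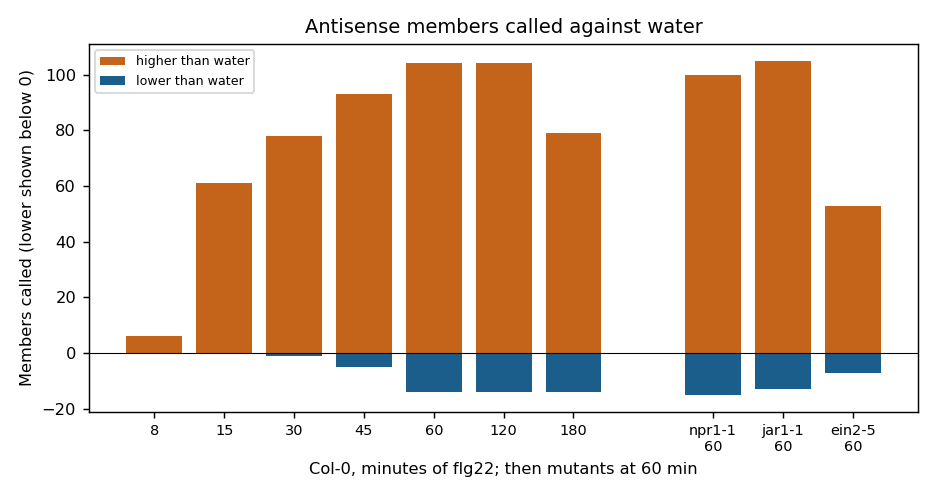
Number of the 200 members called higher (orange, above 0) or lower (blue, below 0) than water, on the y axis, against minutes of flg22 in Col-0 and then for each mutant at 60 min. Calls in Col-0 go from 6 higher at 8 min to 104 higher and 14 lower at 60 min, and ein2-5 has 53 higher and 7 lower.

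The 6 early members were ZAT11, a zinc finger transcription factor, CAF1a, a deadenylase subunit, the cell wall protein AGP1, the RING protein AT2G18670, AT4G34150 with a calcium-dependent lipid-binding domain, and AT1G32920 of unknown function. TMM-normalised CAF1a antisense stood at 3.51, 6.31 and 8.12 TPM in the 3 water libraries and at 67.4, 81.3 and 71.3 TPM at 8 min. The groups did not overlap, and the log2 change was 3.63 ± 0.62 (SE, adjusted p = 2.31e-05, edgeR). By 60 min it was back at 0.840, 3.47 and 3.36 TPM, a change of -1.17 that was not called (adjusted p = 0.274). AT1G32920 stood at 0, 1.15 and 2.03 TPM in water and at 22.8, 20.3 and 19.7 TPM at 8 min, a log2 change of 4.31 ± 0.63. Of the 6, 5 had a sense partner also called higher at 8 min, where 1.31% of all loci were. The exception was AT2G18670, where antisense went from 3.51, 3.44 and 8.12 to 20.1, 19.4 and 21.6 TPM (log2 change 2.04 ± 0.39) and sense changed by 0.10 ± 0.30 (adjusted p = 0.999).

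ZAT11 antisense, with 2 tags in the water group, reached 37.9, 36.7 and 38.6 TPM at 15 min, a ratio of 98.5 with a 95% counting interval of 27.3 to 813. AT1G66090, a TIR-NBS disease resistance protein, had 1 tag in water and 104, 52.2 and 79.8 TPM at 30 min, a ratio of 410 (73.6 to 16187). WAKL10, a wall-associated receptor-like kinase, was at 0 in all 3 water libraries. Its antisense stood at 41.2, 26.9 and 18.5 TPM at 60 min, at least 50.2-fold higher when the water group is set to the limit of 3 tags in all that a count of 0 allows (adjusted p = 7.77e-08, edgeR). Intervals and floors cover counting error only. GAD4, a glutamate decarboxylase, went from 0, 0.573 and 0.676 TPM (2 tags) to 143, 87.7 and 153 TPM, a ratio of 333 (92.3 to 2753). AT3G55470, a further protein with a calcium-dependent lipid-binding domain, went from 0, 0.573 and 1.35 to 35.3, 114 and 122 TPM, a ratio of 145 (53.7 to 761). These were the largest rises at 60 min, and in each the flg22 libraries lay above the water libraries.

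Among the most abundant members, 8 of the first 10 were called higher at 60 min, where 19.3% of all loci were. GSTF7 antisense stood at 24.1, 8.60 and 30.4 TPM in water and at 314.9, 441.0 and 551.2 TPM at 60 min (log2 change 4.37 ± 0.44, adjusted p = 1.24e-13, edgeR). AT1G19020 rose from 7.52, 2.29 and 2.71 to 509, 314 and 311 TPM (6.42 ± 0.82). AT2G38870 rose from 25.6, 8.03 and 49.4 to 759, 705 and 691 TPM (4.71 ± 1.03). In all of these the libraries at 60 min stood clear of those in water. PAL1 rose from 18.0, 4.01 and 17.6 to 156, 45.1 and 89.1 TPM (2.87 ± 0.94, adjusted p = 0.00888), and lost the call without any one of the replicates. EARLI1 was at 103, 53.9 and 128 TPM in water and 103, 100.7 and 127 TPM at 60 min, overlapping groups whose log2 change of 0.22 was not called and turned negative under some other scalings.

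The falls were fewer. RBCS1A antisense stood at 407, 448 and 450 TPM in water and at 157, 75.5 and 90.7 TPM at 60 min, with no overlap (log2 change -2.01 ± 0.49, adjusted p = 5.05e-04, edgeR). Without replicate 2 the adjusted p was 0.0267. By 180 min it was down to 39.9, 11.5 and 26.7 TPM. CCL, annotated as CCR-like, went from 158, 210 and 196 TPM to 1.68, 0.868 and 2.52 TPM (-6.72 ± 1.39), and BBD1, annotated as a nuclease in basal defence, from 103, 75.7 and 52.8 to 1.68, 0.868 and 0.840 TPM (-5.98 ± 0.69). AT2G33830, a dormancy and auxin associated protein, fell from 37.1, 31.5 and 13.5 to 0.840, 1.74 and 0 TPM (3 tags), a ratio of 32.2 lower with an interval of 11.0 to 156.

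Later falls included those of AT2G45180, with log2 changes of -5.90 ± 1.07 at 120 min and -6.57 ± 1.13 at 180 min. AT5G42530 changed by -5.85 ± 1.10 at 180 min. Others were GASA1, a gibberellin-regulated peptide, and AT4G33150, an enzyme of lysine breakdown. GASA1 antisense went from 145, 123 and 227 TPM in water to 5.75, 1.14 and 13.5 TPM at 120 min (-4.60 ± 0.72). AT4G33150 went from 26.6, 15.5 and 17.6 TPM to 0 in all 3 libraries at 120 min, at least 17.0-fold lower. The largest rises at 120 and 180 min included AT2G39530, from 1.5, 0 and 1.35 TPM to 71.4, 75.5 and 88.1 TPM at 120 min (6.22 ± 0.83), and PER4, a peroxidase, from 1.5, 0 and 6.09 to 112, 120 and 84.4 TPM (5.43 ± 0.64).

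The members were also sorted by the known roles of their sense genes. These groups were drawn up after the values were seen, so their counts only describe the genes in them, and no comparison between groups is made. Chaperones and proteins of entry into the endoplasmic reticulum (HSP70, BIP2, HSP81-2 and relatives) were called higher for 4, 11, 14 and 7 of 14 members at 15, 60, 120 and 180 min, with median log2 changes of 1.66, 2.48, 3.03 and 2.45. All loci called higher at these times were 10.2%, 19.3%, 18.7% and 17.9%, and they are the reference for the other groups as well. Of 6 phenylpropanoid enzymes, which make lignin and defence compounds, 1 was called higher at 15 min, 3 at 60 min and 5 each at 120 and 180 min. Of 4 phi-class glutathione transferases, 3, 3, 4 and 2 were called higher at the same times. No member of the EARLI1 cluster of lipid-transfer-like proteins was called at 60 min (median log2 change 0.05 over 4), and 1 was called higher at 120 min and 1 at 180 min. Of 8 members in photosynthesis and photorespiration, 0, 3, 6 and 7 were lower at these times, and at 180 min the sense of all 8 was lower. All loci called lower were 2.99%, 16.6%, 16.8% and 15.2%.

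Gene lists were drawn up for the tissue and treatment with earlier results of these data known, so their counts are a description. Of 45 PTI response genes, 7 had an antisense among the members, and 5 of these were called higher in Col-0 at 60 min. They were PER4, the calcium sensor TCH3, the transcription factor WRKY11, CYP81F2 of indole glucosinolate metabolism and BCS1. Over all of the list, 24 of 37 antisense loci tested and 38 of 45 sense loci were called higher. At this time 19.3% of all loci were called higher and 16.6% lower, and 22.3% and 5.34% of antisense loci. The light reactions list had 3 members (FNR1, FNR2 and PSBQ-2), none called at 60 min, with log2 changes of -1.18, -0.97 and -1.25. On this list 12 of 34 antisense loci and 18 of 53 sense loci were called lower. Of the Calvin cycle list both members, RBCS1A and RBCS3B, were called lower, as were 8 of 13 antisense and 11 of 20 sense loci. The photorespiration list had AGT and SHM1, neither called (log2 changes -1.09 and -0.79). The ethylene, jasmonate and salicylic acid response lists had no member.

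The next question was whether antisense moved with its own sense transcript. At 60 min in Col-0, 102 members were called higher on both strands and 10 lower on both, and none was called in opposite directions. Antisense alone was called higher for 2 members and lower for 4, sense alone was called higher for 25 and lower for 4, and neither strand was called for 53. Among 1749 other loci with both strands tested, 344 were higher on both strands, 82 lower on both and 2 opposite. Over the 200 members the log2 changes of the strands had a Pearson r of 0.95, across genes that are not independent replicates. They had the same sign for 182 members and lay within 1 log2 unit of each other for 173. The median change was 1.94 for antisense and 1.90 for sense.

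**Figure D3:**
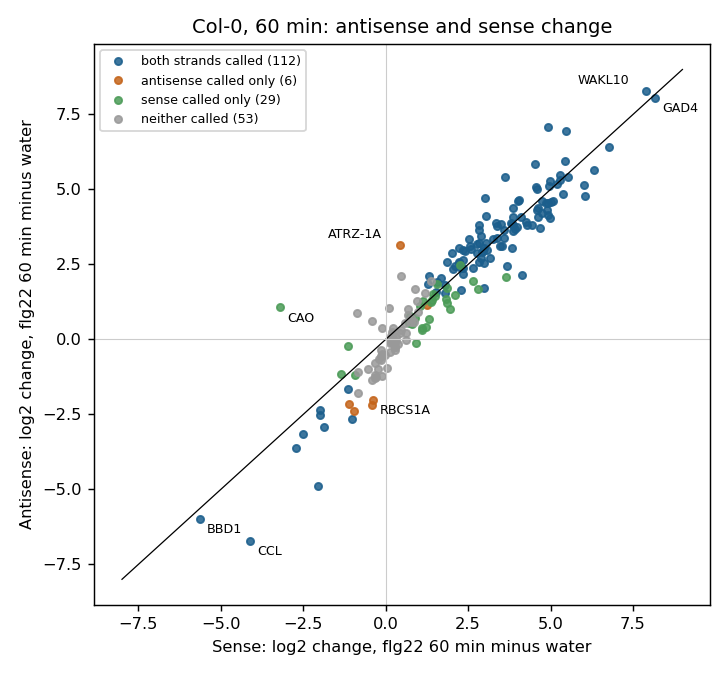
Log2 change at 60 min of flg22 against water in Col-0 for the 200 members, with sense on the x axis and antisense on the y axis. Colours show which strand was called and the line marks equal change. Most points follow the line, with 112 called on both strands, while CAO and ATRZ-1A lie above it and RBCS1A and CCL below.

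The course of the strands was also alike. Over the 32 group means of log2(TPM + 1), antisense had a median r of 0.93 with its own sense, 154 of the 200 were over 0.8 and 5 under 0. The first 5 members by level had values of 0.93 (RBCS1A), 0.98 (GSTF7), 0.97 (PAL1), 0.98 (AT1G19020) and 0.98 (GSTF6). For the other antisense loci tested the median was 0.73 (n = 1970). The members were chosen by level, and their median log2 change in Col-0 at 60 min was 1.94, against 0.63 for the other antisense loci. The r medians of 0.93 and 0.73 are therefore not like for like. With the sense of an overlapping or convergent neighbour, for the 55 members that had one counted, the median was 0.16, while those 55 had 0.91 with their own sense. The authors had given antisense tags close behind a neighbour's 3′ end to that neighbour. Such tags were thus taken out of the antisense counts beforehand, which bears on the value of 0.16. Read-through from neighbours was not tested. All these points share libraries and depth, and the part of sense RNA in the antisense tags was not tested. In Col-0, antisense was highest in the same group as sense for 117 members and in the same or a neighbouring one for 170. The most frequent peak in Col-0 was 120 min for antisense (54 members) and 45 min for sense (45 members). The order was not the same in every genotype. Antisense peaked most often at 30 min in npr1-1 (44 members), at 60 min in jar1-1 (44) and at 30 min in ein2-5 (48), and sense at 45 min (52), 45 min (48) and 180 min (45).

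**Figure D4:**
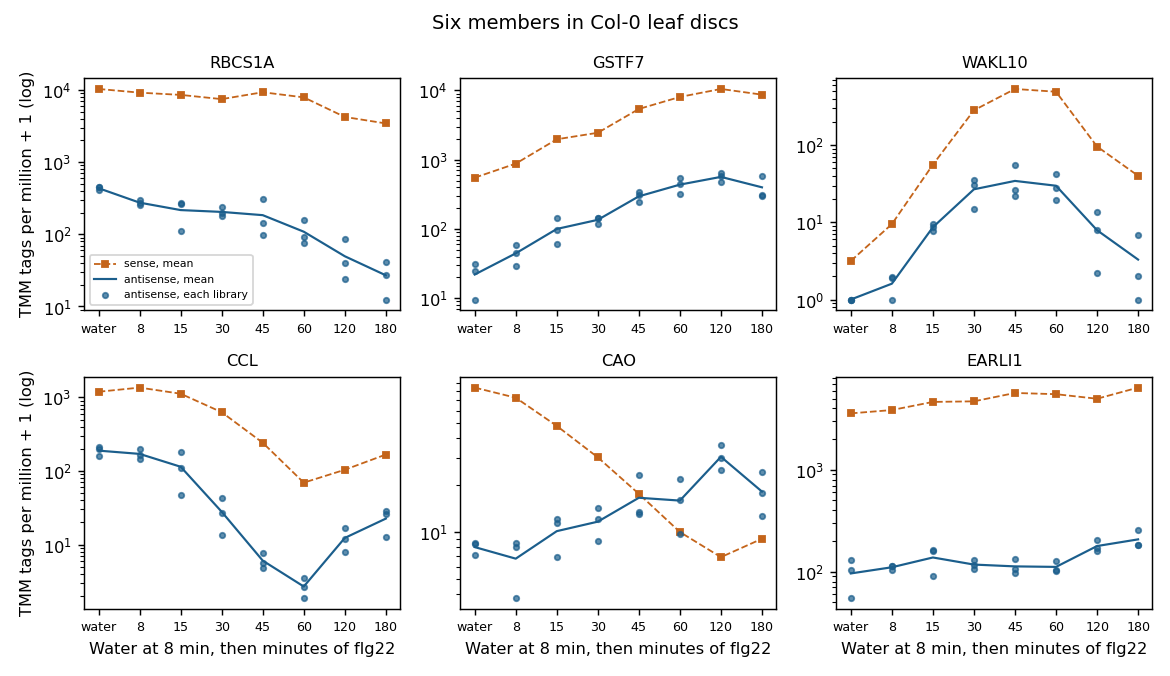
TMM-normalised TPM plus 1 (log axis) for RBCS1A, GSTF7, WAKL10, CCL, CAO and EARLI1 in Col-0, in water at 8 min and then by minutes of flg22. Blue points are single libraries and blue lines means of the antisense, and orange squares are sense means. The strands run in parallel for GSTF7 and WAKL10, antisense falls further than sense for RBCS1A, and the strands cross for CAO.

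The change of antisense relative to sense was tested in 1 model over both strands at 1949 loci. In Col-0 at 60 min no member was called, where 0.924% of loci were, with 19 members at an unadjusted p under 0.05 (edgeR) and 2 called by limma on log2 ratios. With the lane as a block 11 members were called (3.69% of loci). RBCS1A had 4.21, 3.74 and 4.79 antisense per 100 sense tags in water and 1.59, 0.931 and 1.58 at 60 min. These did not overlap, and the relative log2 change was -1.67 ± 0.49 with an adjusted p of 0.0458, or 3.43e-06 with the block. The RBCS1A sense transcript changed by -0.39 ± 0.32 (adjusted p = 0.333). AT2G38870 went the other way, from 3.97, 2.71 and 5.01 to 16.4, 12.3 and 13.0 antisense per 100 sense tags (relative log2 change 1.83, adjusted p = 0.464, or 1.06e-04 with the block).

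CAO, which encodes a chloroplast signal recognition particle protein, had 8.73, 7.72 and 9.19 antisense per 100 sense tags in water and 115, 183 and 241 at 60 min. Its antisense was at 7.52, 7.45 and 6.09 TPM in water and 15.1, 8.68 and 21.0 TPM at 60 min, which was not called, while its sense fell (log2 change -3.20 ± 0.44). The relative change was 4.28 ± 1.05 in Col-0 (adjusted p = 0.0102, or 4.04e-09 with the block), 4.16 ± 1.01 in npr1-1 (adjusted p = 0.00635) and 5.43 ± 1.02 in jar1-1 (adjusted p = 1.55e-04). In the mutants, 2 members were called in npr1-1 (1.39% of loci), 4 in jar1-1 (2.05%) and 1 in ein2-5 (0.770%). These also include ATRZ-1A, an RNA-binding protein, with a relative change of 3.81 ± 0.70 in jar1-1 and 3.11 ± 0.71 in ein2-5. GLY2 was higher in jar1-1 (3.24 ± 0.80), and AT1G36640 lower in npr1-1 (-2.04 ± 0.50) and jar1-1 (-2.01 ± 0.49). None of these calls held in all 3 fits that left out a replicate.

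**Figure D5:**
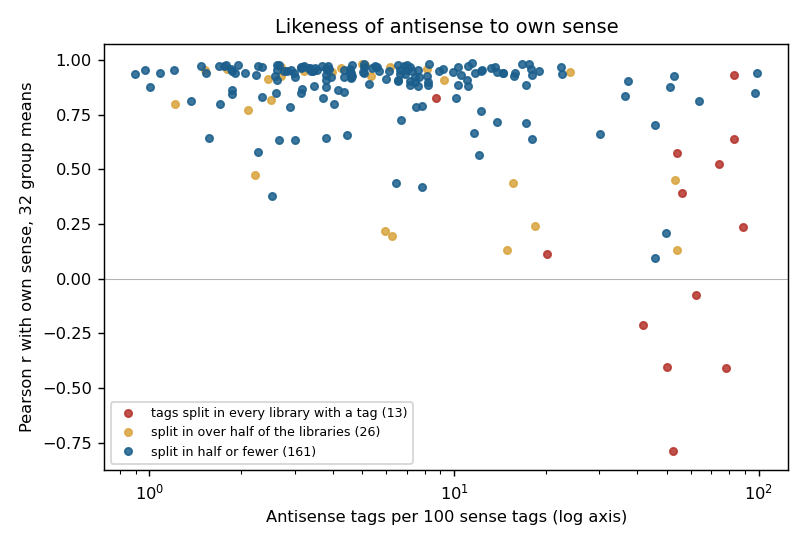
Pearson r between antisense and own sense over 32 group means (y axis) against antisense per 100 sense tags (log x axis) for the 200 members. Red points are the 13 members with tags split among loci in every library that held a tag, yellow the 26 split in over 50%, and blue the 161 others. All 5 members with r under 0 are red.

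A low median likeness was found only for members whose tags were split in every library that held them. The 13 members whose values were split in every library with a tag had a median r of 0.24 with their own sense, and 10 of them had 50 or more antisense per 100 sense tags. The 5 with a negative r, CAO (-0.79), AT4G28570 (-0.41), GLY2 (-0.41), AT4G19410 (-0.21) and BGLU18 (-0.08), were all of this kind. For the 26 members split in over 50% but not every library the median was 0.92, with 16 over 0.8 and 0 under 0. For the 161 members split in no more than 50% of the libraries the median was 0.94, with 136 over 0.8. Median antisense per 100 sense tags was 56.0 for the 13, 5.04 for the 26 and 5.07 for the 161. Part of the antisense tags of those 13 may belong to other loci, and CAO, GLY2 and AT1G36640 are among them. ATRZ-1A was split in 90.6% of the libraries, and RBCS1A in 76.0%.

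Each mutant was compared with its own water libraries at 60 min. In npr1-1 100 members were higher and 15 lower (19.7% and 17.2% of all loci), in jar1-1 105 and 13 (20.4% and 18.0%) and in ein2-5 53 and 7 (13.4% and 9.57%). Of antisense loci, 20.5% and 5.07% were called so in npr1-1, 25.9% and 5.83% in jar1-1 and 10.4% and 2.0% in ein2-5. In ein2-5 replicates 1, 2 and 3, nuclear antisense took 2.31%, 2.40% and 1.48% of the tags in water. At 60 min it took 2.56%, 3.87% and 1.85%. Whether the low share in replicate 3 bears on the ein2-5 count was not tested. A rise was called in all 4 genotypes for 52 members (11.0% of all loci) and in 3 for 43 (5.49%), a fall in all 4 for 6 (6.92%), and no member was called in opposite directions. For antisense loci the shares of these 3 kinds of call were 7.83%, 8.86% and 1.16%. Called or not, 134 members were positive in all 4 genotypes. With the lane as a block 102 members were called in ein2-5 (31.0% of all loci). Without replicate 3, jar1-1 had 68, and ein2-5 had 27 without replicate 2 and 37 without replicate 3. Shares over all loci are not given here for the fits without a replicate. These counts are therefore not read as a loss particular to the members.

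GSTF7 antisense went from 23.1, 7.29 and 26.3 to 292, 324 and 345 TPM in npr1-1, from 16.9, 11.8 and 17.3 to 370, 461 and 720 TPM in jar1-1, and from 75.7, 26.8 and 53.4 to 255, 270 and 234 TPM in ein2-5. The log2 changes were 4.04, 5.06 and 2.28. In each genotype the groups did not overlap. BBD1 fell in all 3 mutants, by 5.69 ± 0.70 on the log2 scale in jar1-1 and by 4.26 ± 0.67 in ein2-5, and in npr1-1 from 67.6, 43.1 and 44.9 TPM to 1.10, 0 and 0. RBCS1A went from 366, 298 and 219 to 193, 173 and 97.3 TPM in ein2-5, a change of -0.93 ± 0.48 that was not called (adjusted p = 0.126).

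Whether the response differed between genotypes was tested on the changes from water at all 7 times jointly, mutant minus Col-0. No member was called for npr1-1 (0.0% of all loci called), jar1-1 (0.0%) or ein2-5 (1.29%) with edgeR. DESeq2 called 0, 0 and 1, and edgeR gave 2, 1 and 20 members an unadjusted p under 0.05. With the lane as a block, 15 members were called for ein2-5 (3.32% of all loci), each with a smaller rise at 60 min than in Col-0. Among them GSTF7 differed by -2.06 (adjusted p = 0.00199), AT1G19020 by -3.19 (adjusted p = 9.65e-04) and AT2G38870 by -3.66 (adjusted p = 4.79e-04). Lanes hold both water and flg22 libraries of a genotype, so the block bears on this comparison within lanes.

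In water, no member differed from Col-0 in npr1-1 (0.0595% of all loci called) or jar1-1 (0.0357%) with edgeR, nor with DESeq2 (0 in both). Unadjusted p-values under 0.05 were found for 5 and 8 members. In ein2-5 6 were higher and 2 lower (5.31% and 1.46% of all loci, and 1.11% and 1.02% of antisense loci). None of the 8 was called when only the libraries of these groups were fitted, so the values named next rest on the spread shared over all 32 groups. Scaling by library total gave 1 higher and 5 lower, with 3 of the 8 shared, and 3 were called without replicate 1 and 1 without replicate 2. PAL1 antisense was at 295, 126 and 35.1 TPM in ein2-5 and 18.0, 4.01 and 17.6 TPM in Col-0. The log2 difference was 3.52 ± 0.95 (adjusted p = 0.00648, edgeR), and its sense was also higher (2.95 ± 0.46). EDA39, a calmodulin-binding protein, was at 19.1, 3.11 and 6.12 against 2.00, 1.15 and 0 TPM (2.96 ± 0.71), and GDH2, a glutamate dehydrogenase, at 8.94, 30.5 and 2.78 against 1.00, 1.15 and 0.676 TPM (3.74 ± 1.05). AZI1, a lipid-transfer-like protein of defence priming, was lower, at 46.5, 6.22 and 17.8 against 160, 80.3 and 139 TPM (-2.42 ± 0.55), and so was GSTF2 (-1.83 ± 0.48). No lane held libraries of more than 1 genotype, so genotype and lane cannot be told apart here.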

How the data were processed

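EXPRSS tags were counted in 96 labelled libraries. One further sample, labelled as unassigned reads, was not used. Per the study's methods, the authors filtered tags with the FASTX Toolkit, aligned them to TAIR10 and then to transcripts with Bowtie 0.12.8, split tags matching several genes equally, and gave antisense tags close behind a gene of the same strand to that gene. The deposited values are expected counts, tags per locus not normalised. Names with the prefix R_ are antisense.

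Counts were rounded and, after filterByExpr (minimum count 10, minimum total 15), tested with edgeR 4.0.16 in R 4.3.3 (TMM, one quasi-likelihood model of 32 groups, two-sided), with Benjamini-Hochberg adjustment over 16816 loci (14569 sense and 2247 antisense) and adjusted p under 0.01 as the call. TMM factors ran from 0.723 to 1.43. Antisense relative to sense was tested over 1949 loci in a model of both strands. SE is the change over the square root of F. The scripts were tested on simulated data. Ranks used plain TPM, and library values in the text are TMM-normalised. Tags come from 1 end of an RNA, so levels were not divided by length. Floors (3 tags) and 95% intervals cover counting error only.

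Per the lane list in the labels, each of 12 lanes held the 8 libraries of 1 genotype and 1 replicate number, so replicate numbers pair libraries within a genotype. After group means were removed, libraries sharing a number had a median correlation of 0.14 in Col-0, and of 0.24, 0.18 and 0.39 in npr1-1, jar1-1 and ein2-5. For libraries with unlike numbers it was -0.07, -0.12, -0.09 and -0.20. For mutant against Col-0 in water the block removes lane spread that the comparison needs. Blocked counts there are listed only among the alternatives, and no result rests on them.

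Members named are the 10 highest, those at the limit and those called relative to sense. Others were drawn from the 3 largest called rises and falls per comparison and from the lists, and not all of these are named. AT2G18670, AT4G34150, AGP1, AT2G38870 and the members with a negative correlation were picked out after their values were seen. The members and lists were chosen with earlier results of these data known. Alternatives were other scalings, no filter, DESeq2 1.42.0, limma 3.58.1 on log2 ratios, the lane block, only the groups compared, leaving out each replicate, and antisense loci alone, the last chosen after seeing the data.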

Additional observations from a re-analysis of the deposited data

How the results depend on the processing

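Calls of members at 30, 45, 60 and 120 min in Col-0 and at 60 min in npr1-1 stayed within 1.5 times of the reported count in every alternative run. Counts of calls in this section are of members unless all loci are named. Where no count over all loci is given, a loss or gain is not read as particular to the members. For the other counts, without the filter on low counts they were 20 (Col-0, 8 min), 99 (ein2-5, 60 min), 1, 1 and 43 (npr1-1, jar1-1 and ein2-5 against Col-0 in water) and 1, 1 and 37 (interactions of npr1-1, jar1-1 and ein2-5). Scaling by library total gave 10 at 8 min, and DESeq2 1 for the ein2-5 interaction. The replicate block gave 19 at 8 min, 102 in ein2-5 at 60 min, 2 and 39 in water for npr1-1 and ein2-5, 15 for the ein2-5 interaction, and for antisense relative to sense 11 (Col-0), 12 (npr1-1), 14 (jar1-1) and 4 (the ein2-5 mutant). The block moved no other count of calls by over 1.5 times. Its counts in water are not relied on, since it removes lane spread that this comparison needs. With only the groups compared the counts were 13 at 8 min, 21 in ein2-5 at 60 min, 0 in water for ein2-5, and 9, 8 and 0 for relative changes in Col-0, jar1-1 and ein2-5. For Col-0 limma on log2 ratios gave 2. Antisense loci alone gave 34 in ein2-5 at 60 min. Over all loci in Col-0 at 8 min, the main fit called 220 of 16816. Without the filter 263 of 49678 loci were called there, and 247 of 16816 with scaling by library total. With only the groups compared it was 180 of 10791 loci. The cause of these differences was not tested.

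Leaving out a replicate gave 2 to 5 calls at 8 min, 34 to 52 at 15 min, 55 to 80 at 180 min, 68 to 108 in jar1-1 and 27 to 57 in ein2-5 at 60 min, 1 to 6 in ein2-5 in water, and for relative changes 0 to 1 in Col-0, 0 to 1 in npr1-1, 0 to 2 in jar1-1 and 0 in ein2-5. EARLI1 at 60 min was -0.22 with library totals, -0.010 without organelle loci, between -0.011 and 0.37 when a replicate was left out and -0.59 with antisense loci alone. Leaving out a replicate gave relative changes from -0.33 to 0.27 for PAL1, -0.056 to 0.079 for ERD15 and -0.23 to 0.065 for SAG20. None of these was called.

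Scaling by library total moved the median of all loci in Col-0 at 60 min from -0.04 to -0.49 and the members' median from 1.94 to 1.48. Fitting nuclear antisense loci alone gave a median of -0.03 over those 2173 loci, where the 2247 antisense loci had 0.70 in the fit of both strands, and moved the members' median to 1.15. With antisense loci alone the split of higher and lower calls was 71 and 22 at 120 min, 48 and 19 at 180 min, and 76 and 23, 65 and 25, and 24 and 10 at 60 min in npr1-1, jar1-1 and ein2-5. The test of antisense relative to sense without a filter was not run. Depth limits members with few tags in a group, which are given with their tags.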
